A study of Mus musculus with 7 samples.

Results

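The genes described are Alas2, Hbb-b2, Tent5c, Alas1, Fech, Cpox, Urod and Hmox1, 8 of the 12393 genes named on the array, followed array by array through the synthesis of haem and the transcripts of red cells in the left ventricle of the mouse heart. They were chosen by their readings in the knockout and the wild type on these same arrays. Their values in that contrast are therefore a description and carry no p-value. The array holds 14 probe sets that name 1 of these genes alone, plus 1 that is shared by the beta-globins. Of the 14, 12 passed the filter on dim signals and 2, both of Cpox, did not.

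The knockout group was 3 mice lacking endothelial nitric oxide synthase, eNOS (-/-), which the labels number M4, M10 and M140. They were compared with 4 wild-type mice, eNOS (+/+), numbered M23, M125, M128 and M158. eNOS, encoded by Nos3, is the enzyme of the vessel lining that makes nitric oxide. All 7 mice were males of 21 months, and each gave 1 array of left ventricle RNA. The labels state as purpose a search for expression changes that go with heart failure in old eNOS-deficient males, and a keyword names exercise without saying which mice, if any, were exercised. The labels used here give neither the strain, nor how the null allele was made, nor whether the ventricles were rinsed free of blood.

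Haem is an iron-bearing ring made in steps shared between the mitochondrion and the cytosol. The first and limiting step, the joining of glycine and succinyl-CoA, is run by Alas1 in most tissues, the heart among them, and by Alas2 in red cell precursors, where it feeds haemoglobin. Alas1 is held down by haem itself, while Alas2 is driven by erythroid factors of the GATA family and gated by iron. The red cells of adult mice have no nucleus, but reticulocytes, the youngest of them in the circulation, still carry RNA for globins and for Alas2. Ventricle that holds blood therefore gives both kinds of transcript. In a bulk sample, more cells of a type and more RNA per cell cannot be told apart.

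The 250 bases before the start site are shown for Alas2 and Alas1, the 2 forms of the first enzyme, for Tent5c, which read with Alas2, and for an alpha-globin gene. The sequences are RefSeq's on GRCm38.p6, 5′ to 3′ on the strand of the gene. They lie at chrX:150547167-150547416 (plus strand) for Alas2, chr9:106247731-106247980 (minus strand) for the second listed start of Alas1, chr3:100489193-100489442 (minus strand) for Tent5c and chr11:32283422-32283671 (plus strand) for Hba-a1. Capitals mark matches on either strand to the erythroid GATA word (GATA preceded by A or T and followed by A or G) and to GCATGCG, the core of the word of the factor NRF1, with overlaps counted.

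Alas2: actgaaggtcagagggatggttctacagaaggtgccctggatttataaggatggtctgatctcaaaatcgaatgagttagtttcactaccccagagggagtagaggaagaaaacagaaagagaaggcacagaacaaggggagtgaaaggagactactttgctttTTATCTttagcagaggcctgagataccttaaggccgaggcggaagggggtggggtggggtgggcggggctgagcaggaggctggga

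Hba-a1: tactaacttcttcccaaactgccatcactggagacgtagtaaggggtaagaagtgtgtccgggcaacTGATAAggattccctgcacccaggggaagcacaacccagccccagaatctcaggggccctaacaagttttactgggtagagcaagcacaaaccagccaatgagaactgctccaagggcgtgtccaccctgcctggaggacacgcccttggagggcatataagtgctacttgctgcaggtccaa

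Tent5c: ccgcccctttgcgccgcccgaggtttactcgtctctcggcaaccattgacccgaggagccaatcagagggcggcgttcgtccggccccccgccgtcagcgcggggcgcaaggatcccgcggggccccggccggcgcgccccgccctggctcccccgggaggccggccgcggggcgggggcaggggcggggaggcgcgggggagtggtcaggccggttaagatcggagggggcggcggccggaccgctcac

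Alas1: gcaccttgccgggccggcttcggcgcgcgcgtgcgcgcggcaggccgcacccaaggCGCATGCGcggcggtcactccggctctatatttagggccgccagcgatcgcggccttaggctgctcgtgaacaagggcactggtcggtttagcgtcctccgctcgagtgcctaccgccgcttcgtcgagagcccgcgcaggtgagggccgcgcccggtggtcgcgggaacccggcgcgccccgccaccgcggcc

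The windows of Alas2 and Hba-a1 each held 1 GATA word, at -86 and -183 from the start. Such a word stood in 26.5% of the 32851 promoter windows in the table, so it is a common match. The windows of Tent5c and of both listed Alas1 starts held none of these letters. The Alas1 window shown held 2 overlapping NRF1 cores, 1 on each strand, at -194 and -193, and 3.02% of all windows hold such a core. Most of that window, the cores included, lies downstream of the first listed Alas1 start, whose own window held no such core. Of the other enzymes of haem synthesis whose windows were searched, Cpox had 2 overlapping GATA words, at -91 and -86. The second start of Uros had 2, at -205 and -68, while its first start, Alad, Urod and Ppox had none. Among the other red cell genes searched, Hbb-bs had 1, at -210, and Hbb-bt, Bpgm and both listed starts of Mkrn1 had none. These matches are descriptions of letters and not of binding.

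Values are deposited intensities on a linear scale. The 7 arrays were alike in level, with medians of 671 to 699, lowest values of 86.5 to 92.3 and upper limits of 44145 to 45552. Experiment sheets place the arrays on 4 hybridization days, each with its own chip lot. Knockout M4 and M10 were run together on day 3, and knockout M140 shared day 1 with a single wild-type array, that of M128. Of the remaining wild-type arrays, M125 was alone on day 2 and M23 was run with M158 on day 4. Just 1 day therefore holds both groups, with 1 array of each, and a comment says that the array of M23 combined 2 processings. No probe set passed the threshold of the genotype comparison, limma's adjusted p under 0.05 (0 of 13836, 0.0%, while without adjustment p was under 0.05 for 909 that read higher in the knockout, 6.57%, and 727 that read lower, 5.25%).

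The day 3 arrays, M4 and M10, were the 2 highest for Alas2, Tent5c, Slc25a37, Bpgm, the shared alpha-globin probe set and 1 Hbb-b2 probe set, so those results are given with and without them. They did not lead for most red cell genes: leaving out Alas2 and Hbb-b2, they were the 2 highest for 3 of 16 testable markers. Knockout M10 and wild-type M125 carried much atrial transcript: Myl7, the atrial myosin light chain, read 1207, 17557 and 407 in knockout M4, M10 and M140, against 356, 16097, 2926 and 399 in wild-type M23, M125, M128 and M158. Nppa, the atrial natriuretic peptide, which strained ventricle also makes, read 44869, 37741 and 45540 in M4, M10 and M140, with M4 and M140 at the upper limit, against 6717, 32820, 12669 and 7993 in M23, M125, M128 and M158 (adjusted p = 0.259). Of the other atrial genes, Dkk3 had a log2 difference of 0.33 (adjusted p = 0.42) and Bmp10 one of -0.06 (adjusted p = 0.887). The 6 atrial genes summed to 49346 to 73697 in the knockout and 10712 to 76212 in the wild type. Nppa made most of that sum in M4 and M140, where Myl4 read 2354 and 1113 and Sln 708 and 477. In M10 and M125, Myl4 read 10430 and 18585. Of 7 genes listed as ventricular muscle markers, 6, the ventricular light chain Myl2 among them, reached the upper limit in every mouse, and Mybpc3 did so in 3. That list therefore does not measure how much ventricle each array held.

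Nos3 did not read lower in the knockout, at 1145, 1413 and 1135 in M4, M10 and M140, against 791, 1163, 872 and 1058 in M23, M125, M128 and M158 (log2 difference 0.35 ± 0.15, adjusted p = 0.42). No source used here places its probe set relative to the deleted part, so it checks nothing, and the groups are named as labelled.

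Alas2, the erythroid synthase, was higher on all 3 knockout arrays than on any wild-type array, and most of the gap lay in 2 of them. Its probe set read 6236, 6484 and 2598 in knockout M4, M10 and M140, against 1649, 1675, 2123 and 2050 in wild-type M23, M125, M128 and M158. Knockout M4 and M10 stood far above the rest, and M140 lay nearer to the wild-type arrays, though above all of them. Group means were 5106 ± 2176 (SD, n = 3) in the knockout and 1874 ± 247 (SD, n = 4) in the wild type, a ratio of 2.72. On the log2 scale the difference was 1.33 ± 0.31 (SE). Without M4 and M10 it was 0.48 ± 0.21, with M140 as the lone knockout array and the spread taken from the wild type. Within day 1, M140 read 0.29 above M128 on the log2 scale.

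Hbb-b2 encodes the minor adult beta-globin, and its probe sets did not behave alike. The x_at probe set read 2257, 2996 and 2089 in knockout M4, M10 and M140, against 1722, 1722, 2065 and 1776 in M23, M125, M128 and M158 of the wild type. The groups did not overlap, but M140 and M128 were nearly level. The log2 difference was 0.41 ± 0.15, and 0.20 ± 0.17 without M4 and M10. Within day 1 it was 0.02. The other probe set was level, at 764, 663 and 736 in M4, M10 and M140, against 798, 745, 676 and 745 in M23, M125, M128 and M158, with a log2 difference of -0.04 ± 0.08. A probe set whose name ends in x_at or s_at can bind related transcripts, so the first of these may read other beta-globins too. The probe set shared by Hbb-b1, Hbb-b2, Hbb-bs and Hbb-bt sat at the upper limit in all 7 mice, which leaves no difference to measure.

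Alpha-globin had 1 bright probe set below the upper limit on every array, an x_at set shared by Hba-a1 and Hba-a2. It read 10727, 12675 and 7240 in knockout M4, M10 and M140, against 3373, 5031, 2825 and 5225 in M23, M125, M128 and M158 of the wild type. The lowest knockout array, M140, exceeded the highest wild-type array. The difference was 1.32 ± 0.28 on the log2 scale (adjusted p = 0.192), 0.86 ± 0.40 without M4 and M10, and 1.35 within day 1. M140 was thus well above M128 for alpha-globin but close to it for Alas2 and for the beta-globin probe set. The embryonic globins were dim or level: Hba-x read 617 to 757 in the knockout and 673 to 742 in the wild type.

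Tent5c encodes a cytoplasmic poly(A) polymerase, known for lengthening the tails of messages for secreted proteins in plasma cells. It showed the widest gap of the 8 genes. Its probe set read 2584, 2195 and 1269.5 in knockout M4, M10 and M140, against 809, 608, 581 and 749 in wild-type M23, M125, M128 and M158. Every knockout array was above every wild-type array, and here M140 also stood clear of them. Means were 2016 ± 675 (SD, n = 3) in the knockout and 687 ± 110 (SD, n = 4) in the wild type, a ratio of 2.93. These differ by 1.48 ± 0.24 on the log2 scale, and by 0.88 ± 0.21 without M4 and M10. Within day 1 it was 1.11, where that of Alas2 was 0.29.

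**Figure D1:**
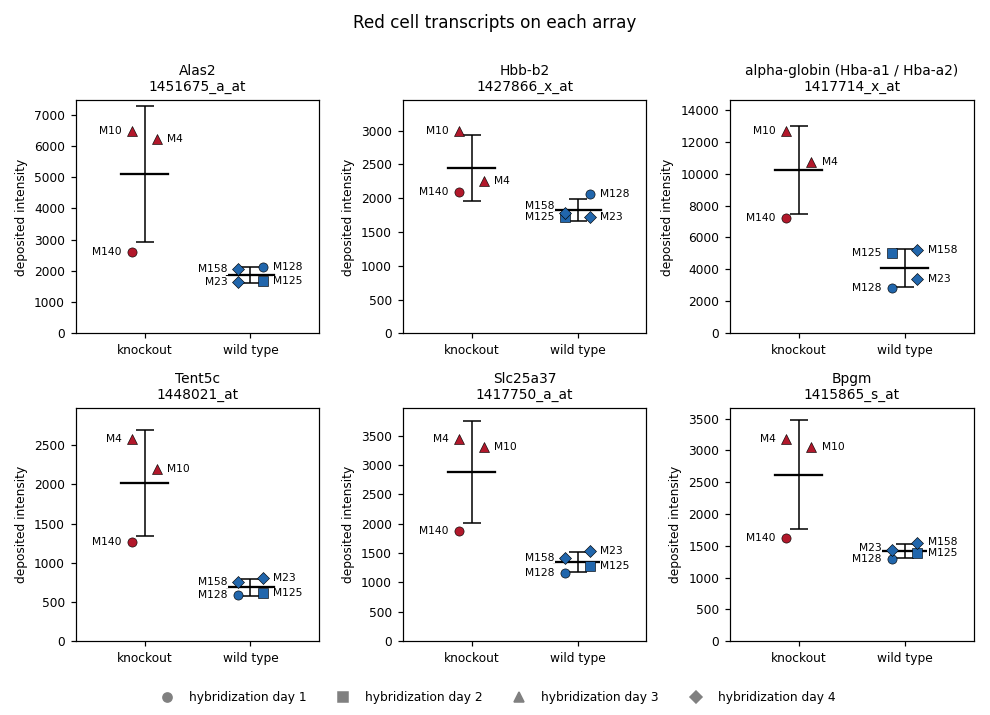
Deposited intensity (linear scale from 0) of 6 probe sets on each array, with knockout on the left in red and wild type on the right in blue. Symbols mark the hybridization day, horizontal bars the group mean and whiskers the SD; M4 and M10 are the highest arrays in every panel, and M140 lies above all wild-type arrays in each, by least for Hbb-b2 (2089 against 2065) and Bpgm (1626 against 1550).

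Over the 14 probe sets of the 8 genes, 3 read higher in every knockout mouse than in any wild-type mouse, beside 4.97% of all tested probe sets. These were Alas2, the x_at probe set of Hbb-b2 and Tent5c, and they are also the 3 in which M4 and M10 were the 2 highest arrays, as they were for 7.45% of tested genes. Another 2 read lower without overlap, Urod and the dimmer Cpox probe set, beside 4.34%. The other 9 overlapped. Since the genes were listed with this contrast known, nothing is read from these counts.

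The wider list of red cell and reticulocyte markers gave 16 testable genes besides Alas2 and Hbb-b2. Of these, 3 read higher at an unadjusted p under 0.05, as did 6.77% of all 8869 tested genes, and 1 read lower, as did 5.4%. None passed after adjustment. Groups did not overlap for 2 that read higher (5.29% of tested genes) and 1 that read lower (4.89%). Their median log2 difference was -0.02, against -0.003 over all tested genes. Their summed level was 41987 to 43223 in the knockout and 34233 to 44384 in the wild type, with M4 and M10 inside the wild-type range. The largest parts of the sum were Prdx2 (13193 to 21810 over all arrays) and Ank1 (6338 to 11759). Wild-type M125 was highest for both the sum and Prdx2, so the sum is no measure of blood in the tissue. Without M4 and M10, 1 read higher and 0 lower, and without M10 and M125, 0 higher and 1 lower. The 3 higher genes were Bpgm, which makes the bisphosphoglycerate that loosens the hold of haemoglobin on oxygen, Mkrn1, a ubiquitin ligase, and Ank1, the ankyrin of the red cell skeleton, which muscle also makes in a short form.

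Bpgm read 3186, 3048 and 1626 in knockout M4, M10 and M140, against 1426, 1386, 1293 and 1550 in wild-type M23, M125, M128 and M158 (log2 difference 0.82 ± 0.23, adjusted p = 0.269). As with Alas2, M4 and M10 made most of the gap, and the difference was 0.20 without them. A second tested Bpgm probe set gave 0.16. Mkrn1 differed by 0.43 ± 0.13 (adjusted p = 0.297) with no overlap, and its 5 probe sets ranged from 0.07 to 0.63. Ank1 differed by 0.39 ± 0.16 (adjusted p = 0.404), but its pattern was another one: M140 was highest at 11759, while M10 and M23 were equal at 8257, and a second tested probe set gave -0.16.

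The lower gene was Car1, a red cell carbonic anhydrase, at 643, 704 and 647 in knockout M4, M10 and M140, against 737, 774, 854 and 724 in wild-type M23, M125, M128 and M158 (log2 difference -0.21 ± 0.08, adjusted p = 0.377). Its signal lay near the median of the arrays. Car2, the other carbonic anhydrase of the list, went the other way, with M4 and M10 highest. It read 1040, 1017 and 731 in M4, M10 and M140, against 802, 811, 731 and 708 in M23, M125, M128 and M158. The groups overlapped (log2 difference 0.26 ± 0.13, adjusted p = 0.483). Slc4a1, the anion exchanger band 3 of the red cell membrane, was too dim for the test and is named here because of its values. It read 677, 812 and 493 in M4, M10 and M140, against 465, 443, 427 and 462 in M23, M125, M128 and M158, again with M4 and M10 on top. Markers of nucleated precursors were dim or level. Gata1 read 309 to 408 in the knockout and 269 to 342 in the wild type, and Klf1 differed by -0.09 ± 0.10 (adjusted p = 0.783).

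Other blood cells were followed by their own markers. The 5 testable platelet genes had a median log2 difference of 0.06 with none at an unadjusted p under 0.05, and their summed level was 8423 to 10571 in the knockout and 8466 to 9494 in the wild type. Itga2b, the platelet integrin, differed by 0.17 (adjusted p = 0.669), Pf4 by 0.07 (adjusted p = 0.893) and Gp9 by 0.06 (adjusted p = 0.874). The 8 neutrophil genes summed to 7207 to 16412 in the knockout and 5911 to 11379 in the wild type, with a median of 0.06 and 1 gene higher at an unadjusted p under 0.05 (6.77% of tested genes were). That gene was Lcn2, at 0.83 ± 0.22 (adjusted p = 0.255). S100a8 and S100a9, the abundant calcium-binding proteins of neutrophils, differed by 1.23 ± 0.61 (adjusted p = 0.486) and 1.20 ± 0.72 (adjusted p = 0.578). Both were highest in M10, but M4, which was high for Alas2, read only 458 for S100a8 and 1237 for S100a9.

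Because Tent5c is known from plasma cells, the B and plasma cell list bears on it. Only 3 of its 11 genes could be tested, with a median of 0.02, and the sum was 5207 to 6495 in the knockout and 4179 to 5589 in the wild type. Ighm differed by 0.31 ± 0.21 (adjusted p = 0.64), Derl3 by -0.11 (adjusted p = 0.718) and Sdc1 by 0.02 (adjusted p = 0.816). T cell genes (4 tested) had a median of -0.12 and summed to 3960 to 4424 in the knockout and 4324 to 5061 in the wild type. Cd8a was lower at an unadjusted p under 0.05, as were 5.4% of tested genes (-0.24, adjusted p = 0.367), while Thy1 and Cd3e differed by -0.11 and -0.13 (adjusted p = 0.699 and 0.822). The part of these cells in the Alas2 and Tent5c differences was not tested.

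In a further fit the mean log2 level of the 3 adult globin probe sets below the upper limit was taken as a covariate. These were the shared alpha-globin probe set and both Hbb-b2 probe sets, 1 of which was level, and since Hbb-b2 was itself chosen on this contrast the mean is no independent measure of blood in the tissue. That mean was 11.14 to 11.53 in the knockout and 10.64 to 10.91 in the wild type. The groups did not overlap in it, and the fit with it had wide errors. In that fit the knockout difference was 0.17 ± 0.59 for Alas2, 0.64 ± 0.46 for Tent5c and -0.27 ± 0.87 for Alas1. The planned correlation of Alas2 with haemoglobin across arrays is not given, since M4 and M10 formed a cluster of their own and neither cluster held 6 arrays. With Myl7 as covariate in its place, Alas2 and Tent5c differed by 1.31 and 1.48, close to the plain values. Without M10 and M125, the arrays rich in atrial transcript, they differed by 1.06 and 1.34.

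Alas1, the synthase that heart cells use, showed another pattern: its largest spread was within the wild type. Its brighter probe set read 4591, 4445 and 5398 in knockout M4, M10 and M140, against 5291, 3411, 2066 and 6677 in M23, M125, M128 and M158 of the wild type. The knockout arrays were close together and lay inside the wild-type range, whose ends were M128 and M158. Means were 4812 ± 513 (SD, n = 3) in the knockout and 4361 ± 2033 (SD, n = 4) in the wild type. The difference, 0.27 ± 0.37 on the log2 scale, was smaller than its error.

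The second Alas1 probe set, an x_at one, ordered the arrays almost alike. It read 1654, 1483 and 2121 in M4, M10 and M140, against 2240, 1483, 1174 and 2335 in M23, M125, M128 and M158, for a log2 difference of -0.00 ± 0.26. In both, M128 was lowest and M158 highest. The day 3 knockout arrays, highest for Alas2, were in mid-range for Alas1. Within day 1 the first probe set gave 1.38 and the second 0.84, with M128 the lowest of all arrays. A fit with day as a fixed block rests on that same pair.

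The enzymes after the synthase were lower or level in the knockout, and the clearest of them was Alad, which joins the product of the first step in pairs to porphobilinogen. Alad read 1547, 1685 and 1605 in knockout M4, M10 and M140, against 2298, 3391, 2167 and 2806 in M23, M125, M128 and M158 of the wild type. The groups did not overlap and the knockout arrays were within a narrow band. Means were 1612 ± 69.2 (SD, n = 3) in the knockout and 2666 ± 557 (SD, n = 4) in the wild type. The log2 difference was -0.70 ± 0.17 (adjusted p = 0.233), -0.70 without M4 and M10, and -0.43 within day 1.

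Uros, which closes the ring, read 3704, 3244 and 2542 in knockout M4, M10 and M140, against 3933, 3763, 3140 and 4020 in wild-type M23, M125, M128 and M158 (log2 difference -0.24 ± 0.17, adjusted p = 0.644). M128 lay below 2 of the knockout arrays, so the groups overlapped. Urod, which trims the side chains of the ring, read 1313, 1305 and 1264 in M4, M10 and M140, against 1446, 1740, 1405 and 1444 in M23, M125, M128 and M158. The groups did not overlap, at a log2 difference of -0.21 ± 0.10, and M125 stood above the other wild-type arrays. Within day 1 it was -0.15.

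Cpox, the oxidase that follows Urod, was dim. The brighter of its probe sets read 389, 359 and 338 in knockout M4, M10 and M140, against 455, 389, 389 and 466 in M23, M125, M128 and M158 of the wild type. The dimmer one read 251, 316 and 323 in M4, M10 and M140, against 333, 377, 325 and 347 in M23, M125, M128 and M158. Both differed by -0.22 on the log2 scale, and in the second the gap between M140 and M128 was only that between 323 and 325. Ppox, the next oxidase, read 993, 993 and 933 in the knockout arrays M4, M10 and M140, against 993, 1046, 883 and 1119 in wild-type M23, M125, M128 and M158, and differed by -0.05 ± 0.09 (adjusted p = 0.895).

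Fech, which places iron in the ring, overlapped between the groups in all 4 of its probe sets. Its brightest probe set, an s_at one, read 12410, 12542 and 12151 in knockout M4, M10 and M140, against 11791, 13546, 11673 and 11499 in M23, M125, M128 and M158 of the wild type. The knockout arrays lay inside the wild-type range. The 4 Fech probe sets differed by 0.03 ± 0.09, 0.00 ± 0.12, -0.14 ± 0.11 and 0.06 ± 0.08, each within or near its own error. Across the 7 testable enzymes of the pathway, with Alas2 (1.33) counted in and Cpox too dim to count, the median log2 difference was -0.05. It had no stable sign, at 0.06 with day as a fixed block and from -0.11 to 0.001 when 1 array was left out. For the 3 that are not members, Alad, Uros and Ppox, it was -0.24, and 1 of them, Alad, read lower at an unadjusted p under 0.05, as did 5.4% of tested genes; with the day block or without M4 and M10 that count was 0.

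**Figure D2:**
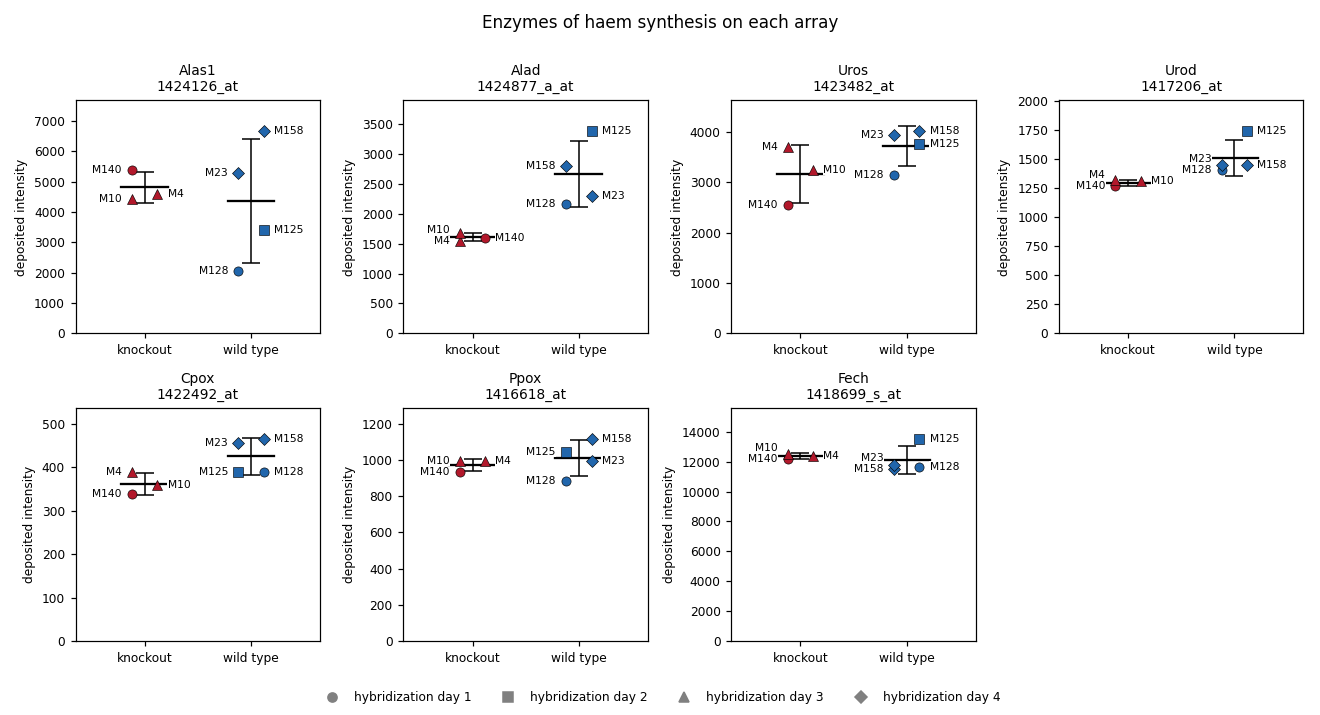
Deposited intensity (linear scale from 0) of 7 enzymes of haem synthesis in the order of the pathway, with 1 probe set each, knockout in red on the left and wild type in blue on the right. Cpox is among them and Alas2 is not. Bars are means and whiskers SD; the knockout arrays cluster tightly for Alas1 (4445 to 5398) inside a wide wild-type range (2066 to 6677), and lie below all wild-type arrays for Alad and Urod.

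Hmox1, the inducible haem oxygenase that opens the ring and frees iron, varied mainly among wild-type mice. It read 1195, 1127 and 1062 in knockout M4, M10 and M140, against 911, 1688, 2352 and 948 in M23, M125, M128 and M158 of the wild type. The knockout arrays lay between the lower pair and the upper pair of wild-type arrays. Means were 1128 ± 66.4 (SD, n = 3) in the knockout and 1475 ± 685 (SD, n = 4) in the wild type, with a log2 difference of -0.27 ± 0.32. Wild-type M128 was highest for Hmox1 and lowest for Alas1, while M158 and M23 were low for Hmox1 and high for Alas1. Within day 1 the difference was -1.13.

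The other genes of haem breakdown were level or lower. Blvrb, a biliverdin reductase of red cells and other tissues, read 881, 956 and 1015 in knockout M4, M10 and M140, against 1078, 1083, 1266 and 1133 in M23, M125, M128 and M158 of the wild type. The groups did not overlap (log2 difference -0.26 ± 0.09, adjusted p = 0.341). Blvra, the main biliverdin reductase, differed by -0.14 ± 0.13 (adjusted p = 0.731), and Hmox2, the constant haem oxygenase, by -0.06 ± 0.14 (adjusted p = 0.911). Of the 3 genes besides Hmox1, 1, Blvrb, read lower at an unadjusted p under 0.05, beside 5.4% of tested genes.

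Among genes that carry haem, its precursors or its iron (16 tested, median 0.04, with an unadjusted p under 0.05 for 2 that read higher, beside 6.77% of tested genes, and 1 that read lower, beside 5.4%), Slc25a37 was highest in M4 and M10, as were Alas2, Tent5c and Bpgm. Slc25a37 encodes mitoferrin 1, which brings iron into the mitochondria of red cell precursors. It read 3450, 3310 and 1881 in knockout M4, M10 and M140, against 1540, 1273, 1154 and 1419 in M23, M125, M128 and M158 of the wild type. The groups did not overlap and M4 and M10 led, with a log2 difference of 1.05 ± 0.22 (adjusted p = 0.192), 0.49 without those arrays and 0.70 within day 1. Slc25a28, the mitoferrin of other tissues, differed by 0.10 ± 0.19 (adjusted p = 0.897).

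The other higher gene was Lrp1, a receptor that takes up haem bound to haemopexin, at 0.56 ± 0.23 (adjusted p = 0.397), and it was highest in M140 rather than in the day 3 arrays. The lower gene was Tmem14c, the porphyrin carrier of mitochondria, at -0.51 ± 0.17 (adjusted p = 0.315), and its groups met at 6478 in M140 and M23.

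Of the 11 testable genes of iron uptake, storage and sensing, 2 read lower at an unadjusted p under 0.05 and 0 higher, around a median of -0.08. Over all tested genes the shares were 5.4% lower and 6.77% higher. Slc40a1, ferroportin, the exporter of iron from cells, read 1664, 2294 and 1025 in knockout M4, M10 and M140, against 2436, 3400, 5847 and 2425 in wild-type M23, M125, M128 and M158. All knockout arrays lay below all wild-type arrays, and M128 was highest, as for Hmox1. That is a log2 difference of -1.05 ± 0.37 (adjusted p = 0.341), and a second probe set gave -0.34 with overlap. Nfs1, which supplies sulfur for iron-sulfur clusters, differed by -0.42 ± 0.16 (adjusted p = 0.379), and Ireb2, an iron sensor, by -0.28 (adjusted p = 0.592).

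The list of haem proteins of heart cells and of enzymes that fit haem to them had a median of -0.17 over 11 tested genes. It also holds Sod2 (0.06), which is not a haem protein. Of the 11, 2 read lower at an unadjusted p under 0.05, where 5.4% of tested genes did. Hccs, which attaches haem to the c-type cytochromes, differed by -0.60 ± 0.18 without overlap (adjusted p = 0.296). Cyc1, one of those cytochromes, differed by -0.21 ± 0.08 (adjusted p = 0.373) and Sdhc, a haem-bearing subunit of succinate dehydrogenase, by -0.49 ± 0.24 (adjusted p = 0.476). Myoglobin (Mb) was at the upper limit and gives no difference, and Cycs reached the limit on 1 array.

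Of 11 tested regulators of Alas1 and of haem genes, 1 read lower at an unadjusted p under 0.05 (5.4% of tested genes did) and 0 higher (6.77% did), with a median of 0.04. The lower one was Ppargc1a, the coactivator of mitochondrial genes that turns on Alas1 in fasting mouse liver. It read 738, 833 and 1149 in knockout M4, M10 and M140, against 4126, 4237, 3351 and 3153 in wild-type M23, M125, M128 and M158. This was the smallest adjusted p on the array at 0.0531, with a log2 difference of -2.03 ± 0.18, while its other 4 probe sets gave -0.50 to -0.81. In most of those 4 the groups met or overlapped. Mafk, a partner of factors on the haem oxygenase gene, differed by 0.42 (adjusted p = 0.486), and Lonp1, a mitochondrial protease that degrades Alas1 protein when haem is plentiful, by 0.37 (adjusted p = 0.578). Alas1 itself overlapped between the groups.

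**Figure D3:**
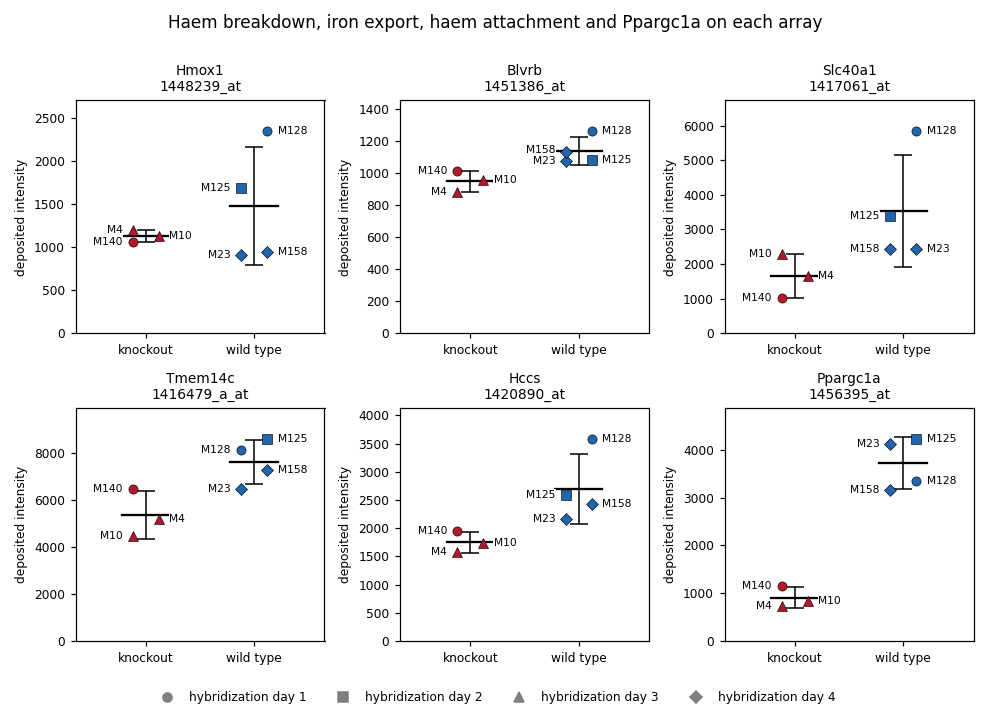
Deposited intensity (linear scale from 0) of 6 genes of haem breakdown, iron export, porphyrin transport, haem attachment and Alas1 regulation on each array, knockout in red on the left and wild type in blue on the right. Bars are means and whiskers SD. Hmox1 overlaps, with knockout arrays at 1062 to 1195 between wild-type values of 911 and 2352. In the probe sets shown, Slc40a1, Hccs, Blvrb and Ppargc1a are lower on every knockout array. Groups met or overlapped in most other Ppargc1a probe sets and in a second Slc40a1 one.

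The genes most like Alas2, Tent5c and Alas1 were ranked by Pearson's r of log2 values over the 7 arrays, among all tested genes. For Alas2 these were Malat1 (r = 0.981), Pdxdc1 (0.977), Bpgm (0.972), Cd24a (0.971) and Gart (0.968). The likeness rests mainly on M4 and M10, since over the other 5 arrays r was 0.528 for Bpgm and 0.770 for Malat1. Malat1, a nuclear non-coding RNA, read 3818, 3303 and 1060 in knockout M4, M10 and M140, against 532, 588, 511 and 657 in wild-type M23, M125, M128 and M158.

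For Tent5c the nearest were Slc25a37 (r = 0.993), Tanc1 (0.982), Tma16 (0.978), Adamts1 (0.977) and Malat1 (0.975), and Slc25a37 stayed at 0.980 over the 5 arrays without M4 and M10. For Alas1 they were Brd7 (r = 0.981), Smad1 (0.978), Nt5c2 (0.978), Rrs1 (0.976) and Tnnc1 (0.966). Tnnc1 was at the upper limit on 6 of the 7 arrays, so its r says little. Without M4 and M10, Brd7 gave 0.996. The first 5 genes of Alas1 shared none with those of Alas2 or Tent5c, whereas Alas2 and Tent5c had Malat1 in common. These ranks describe 7 arrays that share days and groups.

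**Figure D4:**
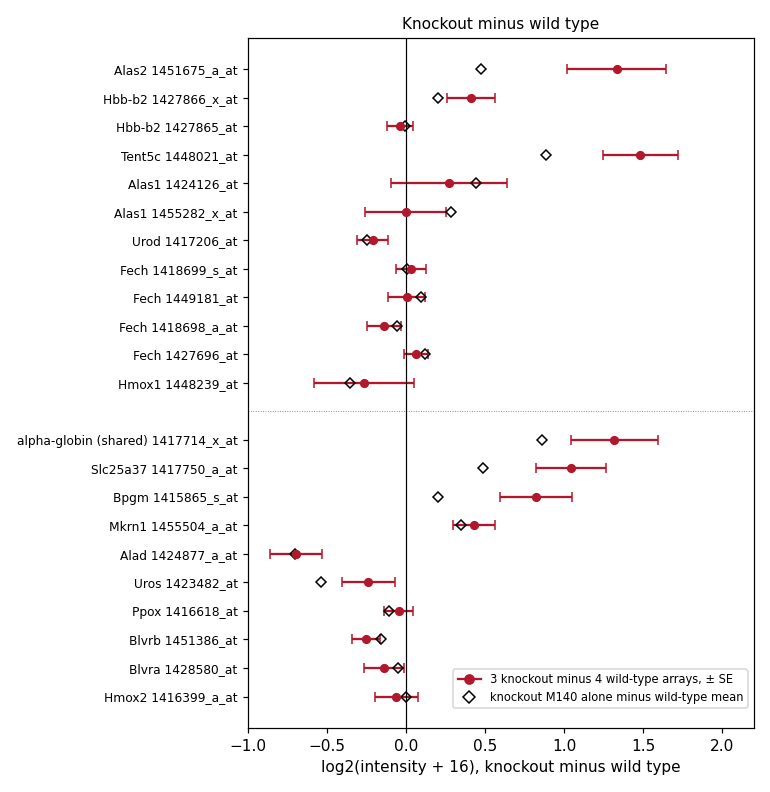
Log2 difference, knockout minus wild type, of log2(intensity + 16) for the tested probe sets of the members (above the dotted line) and of related genes (below it). Red points are differences over 3 knockout and 4 wild-type arrays with SE whiskers, and open diamonds are M140 alone minus the wild-type mean; the diamonds of Alas2 (0.48), Tent5c (0.88), Slc25a37 (0.49) and Bpgm (0.20) lie well left of the points, while that of Alad (-0.70) lies on its point.

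Set side by side, the 2 forms of the first enzyme differed in which arrays were high. Alas2 was highest in M10 and M4 and read 1.33 ± 0.31 higher in the knockout on the log2 scale, as did Tent5c, Slc25a37, Bpgm and the shared alpha-globin probe set by 0.82 to 1.48. These are the genes picked out above and do not stand for the red cell markers at large. The 16 testable markers besides Alas2 and Hbb-b2 had a median of -0.02, with 9 below 0. Several of the 16 were dim: Epb42 read 449 to 549 and Kel 461 to 621, below the array medians of 671 to 699. The alpha-globin probe set is not among them, since it is shared. With the 60th percentile filter the list median, Alas2 and Hbb-b2 counted in, was 0.15 in place of 0.04. Car1 read lower without overlap, Car2 read higher with overlap (0.26), and the second Hbb-b2 probe set was level (-0.04). Alas1 was highest in wild-type M158 and lowest in wild-type M128, and its difference of 0.27 ± 0.37 was within its error. Hybridization day moved with the first pattern, since M4 and M10 were the only arrays of day 3, and its part was not tested beyond the day 1 pair.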

How the data were processed

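Left ventricle RNA of 3 knockout and 4 wild-type mice was hybridized to Affymetrix MOE430A arrays, with 1 array for each mouse. The authors' deposited table holds an intensity per probe set (22690) on a linear scale; no source used here names the software, background correction or scaling. Deposited experiment sheets, other information per the file headers, gave the hybridization days. Leaving out 64 control probe sets left 22626, of which a platform table named 1 gene for 20380, several for 691 and none for 1555.

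Intensities were taken as log2(intensity + 16), which understates differences of dim probe sets. Probe sets above the 40th percentile of their own array on at least 3 arrays were tested (13836), and a gene was represented by its brightest tested probe set (8869 genes). Groups were compared by limma 3.58.1 in R 4.3.3 (lmFit and eBayes with trend, two-sided, no covariate) and p-values were adjusted by Benjamini-Hochberg across every tested probe set, with 0.05 as threshold; the fit was tested on simulated data. P-values measure the spread between these arrays only, and 7 arrays limit the precision.

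The 8 genes and the 13 lists were chosen with earlier results of these data known. Named are all probe sets of the 8 genes, tested genes of haem synthesis and breakdown, and the 3 smallest p of each other list. The globins, Myl7, Ppargc1a, Nos3 and the 5 nearest genes by r are named too. A few others, such as Ank1, Car2, Epb42, Kel, Prdx2, Slc4a1, Gata1, Klf1, Slc25a28, Sod2 and Mb, were chosen after their values were seen. Alternatives were offsets of 1 and 64, quantile normalization, other filters, no trend, array weights, day as a block, a threshold of 0.10, the mean of all probe sets, probe sets below the limit, globin or Myl7 as covariates and leaving out arrays. Leaving out M4 with M10, and M10 with M125, was added after seeing the data.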

Additional observations from a re-analysis of the deposited data

Results flagged for a closer look

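Each probe set named by the rule was screened for a wild-type array that lay far from the other 3, measured as the gap over the range of the 4 arrays and set against Dixon's critical value. Of 54 probe sets, 8 were picked out, and chance picks about 1 in 20 groups. The 3 knockout arrays are too few for this screen.

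Wild-type M125 was far above the other wild-type arrays for Urod at 1740, for the s_at Fech probe set at 13546 and for Bmp10, an atrial growth factor, at 855. It was also picked out for a dim Fech probe set, at 856, but only because the other wild-type arrays all read 826. That gap is small. M125 is also one of the arrays rich in Myl7. The Urod groups did not overlap with or without that reading, since the knockout arrays read 1264 to 1313 and the other wild-type arrays 1405 to 1446.

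Wild-type M128 was far above the others for the x_at probe set of Hbb-b2 at 2065, and far below them for Itga2b at 861 and Ighm at 1975. Wild-type M23 was far below the others for Lrp1 at 1760. M128 is the only wild-type array on the same hybridization day as a knockout array, so each of its readings enters the day 1 values whole.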

How the results depend on the processing

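No paired analysis was possible because the knockout and wild-type mice share no numbers. The 8 genes carry no test, and their p-values enter none of the counts below. Over 22 alternatives the log2 difference of Alas2 stayed above 0, from 0.17 with the 3 globin probe sets as covariate to 1.76. That of Tent5c ran from 0.64 to 1.78, and that of Urod stayed below 0. Leaving out arrays could not change these signs, since the groups did not overlap for any of these genes. The choice of filter or trend leaves such a difference as it was, and the fixed day block repeats the day 1 pair. Nothing is therefore read from the steady signs. The brighter Alas1 probe set was of opposite sign in 3 of 22, the x_at one in 11 of 21 and Hmox1 in 2 of 22. The planned Alas2 and haemoglobin correlation was not run under any alternative.

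Probe sets past the threshold numbered 0 in the main setting, 1 with the 60th percentile filter, 619 with array weights, 1 with day as a fixed block, 21 at an adjusted p under 0.10, 2 without M10 and M125, 3 without M4 and M10, and 0 to 79 when 1 array was left out (79 without M10, 27 without M140). For haem synthesis, Alas2 counted in, the median of -0.05 became 0.058 with day as a fixed block. Leaving out 1 array, the median for haem synthesis ran from -0.11 to 0.0010 (0.0010 without M158). Of its 3 enzymes outside the 8 genes, the 1 lower at an unadjusted p under 0.05 became 0 with the day block and 0 without M4 and M10, and stayed at 1 leaving out 1 array.

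For red cell markers, Alas2 and Hbb-b2 counted in, the median of 0.04 became 0.15 with the 60th percentile filter and -0.075 without M4 and M10, and ran from -0.019 to 0.12 leaving out 1 array (0.12 without M158, 0.11 without M23). With Alas2 and Hbb-b2 left out, genes higher at an unadjusted p under 0.05 (3) became 0 without M10 and M125 and 1 without M4 and M10, and ran from 2 to 3 leaving out 1 array. Genes lower (1) became 0 with the 60th percentile filter, 2 with array weights and 0 without M4 and M10, and ran from 0 (without M140, M125 or M128) to 2 (without M10 or M158).

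The haem breakdown median (-0.20) became -0.10 with array weights or the day block and -0.11 without M10 and M125 or M4 and M10. The transport median (0.04) became -0.056 without M4 and M10 and ran from 0.0060 to 0.11 (0.11 without M140). The iron median (-0.08) became -0.040 with day as a random block and 0.0038 without M4 and M10, and ran from -0.083 to -0.014 leaving out 1 array. The haem protein median (-0.17) became -0.073 with array weights, -0.024 with the day block and -0.068 without M4 and M10, and ran from -0.22 to -0.050 leaving out 1 array (-0.050 without M128). The regulator median (0.04) became -0.10 with the day block and -0.15 without M4 and M10. The causes were not tested. Values at the upper limit and near the lowest readings understate differences.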
